A study of Homo sapiens with 10 samples.

Results

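The JUNB-alone regions of transformed cells are the ChIP-seq peaks of JUNB whose summit lies apart from the summits of the other proteins mapped in the same cells. They were chosen by position, as JUNB peaks on chromosomes 1 to 22 and X whose summit (the base with the highest read coverage) has no summit of FOS, JUN, STAT3 or NFKB1 within 300 bp in transformed cells. By this rule 7757 of the 101014 JUNB peaks were alone, a share of 7.68% (95% Wilson interval 7.52 to 7.84%). The rule looks at summits only, and the intervals of 194 of these peaks (2.50%) still overlapped that of another protein. The cells are ER-Src cells, the non-tumorigenic human breast epithelial line MCF-10A with a v-Src oncoprotein fused to the estrogen receptor's hormone-binding part, in which tamoxifen switches Src on and the cells transform. JUNB_TAM, FOS_TAM, JUN_TAM, STAT3_TAM and NFKB1_TAM are transformed cells that received 1 μM 4-hydroxy-tamoxifen for 12 h, and JUNB_EtOH, FOS_EtOH, JUN_EtOH, STAT3_EtOH and NFKB1_EtOH are non-transformed cells that received the ethanol solvent. All groups share the same line and the v-Src transgene, and each protein has 1 sample per condition. No difference between conditions can therefore be tested against replicate error, and the intervals given here cover the sampling of sites within a list only.

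JUNB is a subunit of AP-1, the family of transcription factors whose members bind DNA as dimers. JUN-type subunits such as JUN and JUNB pair with each other or with FOS-type subunits such as FOS, and the FOS-type subunits need a JUN-type partner to bind. STAT3 is activated by cytokines and by Src through tyrosine phosphorylation, and NFKB1 is a DNA-binding subunit of NF-κB, the central factor of inflammatory gene control. AP-1 subunits other than FOS, JUN and JUNB were not measured here, so "alone" means apart from these 4 other proteins and from no others.

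The libraries held 4837474 to 22082403 reads after the authors kept 1 read per position, and 15750765 for JUNB_TAM against 9178601 for JUNB_EtOH. Of the JUNB reads, a share of 0.31 in transformed and 0.50 in non-transformed cells had been removed as repeated positions. JUNB in transformed cells therefore has the deeper and less duplicated library of its pair, and its list is the longer (101014 against 75249 peaks).

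The JUNB-alone peaks were weak. Fold enrichment, as deposited, is the ratio of the read pileup at the summit to the local background, with a constant added to both. The constant weighs more at low pileups and in shallow libraries. At the JUNB-alone peaks it had a median of 4.60 (quartiles 4.27 and 5.14, range 2.96 to 28.5). JUNB peaks that had any of the other proteins nearby had a median of 9.13 (quartiles 6.22 and 15.4). The median pileup was 8 reads at JUNB-alone peaks and 16 at the other JUNB peaks, and the median −log10 q was 3.85 against 12.9. The JUNB-alone peaks were also short: 3753 of them (48.4%) had the shortest length in the list, 129 bp, against 7.50% of the other JUNB peaks. These values come from the JUNB list that the peaks were chosen from and are given as a description.

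JUNB strength increased step by step with the number of other proteins at the same place. Median fold enrichment was 4.60 with 0 other proteins, 5.71 with 1, 7.23 with 2, 9.13 with 3 and 15.4 with 4, over 7757, 11729, 23543, 21509 and 36476 peaks. The quartile ranges of neighbouring classes overlapped, and the upper quartile of the JUNB-alone peaks (5.14) stayed below the median of each of the other classes.

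**Figure D1:**
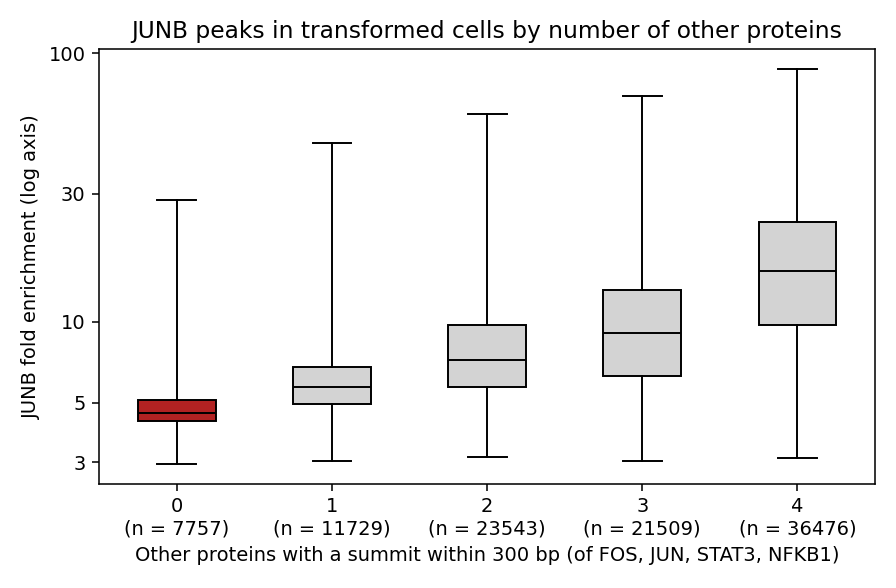
Fold enrichment of JUNB peaks in transformed cells (log axis) against the number of other proteins with a summit within 300 bp. Boxes give the quartiles and median and whiskers the lowest and highest peak, with the JUNB-alone peaks in red, and the median rises from 4.60 with 0 other proteins to 15.4 with 4.

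When all JUNB peaks were ordered by −log10 q and divided into 10 classes of equal size, 39.2% of class 1, the weakest, was alone (3955 peaks). The share was 21.8% in class 2, 10.1% in class 3, 4.15% in class 4 and 1.07% in class 5. Above that it fell to 0.307% in class 6 and to at most 0.0792% in each of classes 7 to 10, where 8, 2, 4 and 1 peaks were alone. Thus 7184 of the JUNB-alone peaks (92.6%, 92.0 to 93.2%) belonged to the 3 weakest classes, and 44 (0.567%) had a −log10 q above the median of the JUNB list. A fold enrichment of at least 10 was reached by 20 JUNB-alone peaks.

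**Figure D2:**
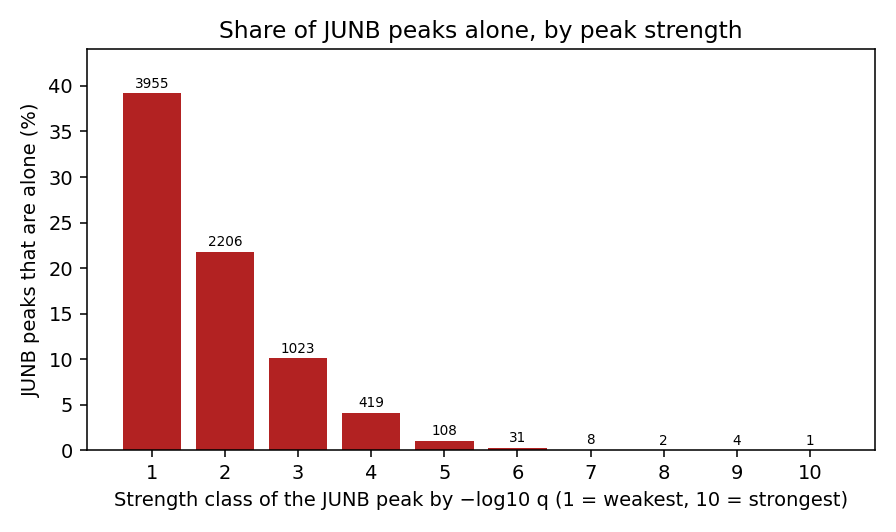
Percent of JUNB peaks in transformed cells that are alone, for 10 equal classes of −log10 q from the weakest (1) to the strongest (10), with the number of JUNB-alone peaks above each bar. The share falls from 39.2% in class 1 to 0.00990% in class 10.

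The same rule was applied to each of the other proteins, against the remaining 4. Alone peaks made up 25.0% of FOS peaks (41116), 16.0% of JUN peaks (20403), 12.5% of NFKB1 peaks (9220) and 10.8% of STAT3 peaks (8707), against 7.68% of JUNB peaks. Each list was also split into equal stronger and weaker parts by rank of −log10 q, with ties taken in list order. In the stronger part, 3.95% of FOS, 3.66% of JUN, 5.91% of NFKB1 and 4.10% of STAT3 peaks were alone, and 0.0931% of JUNB peaks. JUNB had the lowest of the 5 values both times. The 5 shares are not on equal terms, because each list meets a different set of partner lists: JUNB is set against the FOS list, the longest with 164605 peaks, whereas FOS is not.

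The FOS list had the most weight in deciding which JUNB peaks were alone. FOS had a summit within 300 bp of 89.0% of all JUNB peaks in transformed cells, JUN of 77.5%, STAT3 of 52.3% and NFKB1 of 47.7%. Of the 11729 JUNB peaks with a single other protein, 9758 had FOS (83.2%, 82.5 to 83.9%), 1269 had JUN, 362 had STAT3 and 340 had NFKB1. Without the FOS list, 17515 JUNB peaks (17.3%) would count as alone, and without the JUN, STAT3 or NFKB1 list 9026, 8119 and 8097 would.

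The lists of non-transformed cells took no direct part in choosing the JUNB-alone regions, but they map the same 5 proteins. Sites of FOS, JUN, STAT3 or NFKB1 occupied in both conditions were left out by the rule, so low shares for these proteins are partly built in. Most of the JUNB-alone regions had no nearby summit in any list of non-transformed cells. Overlap of their intervals with those lists was not tested. Of the 7757 regions, 6366 (82.1%, 81.2 to 82.9%) had no summit of any of the 5 proteins within 300 bp in non-transformed cells, whereas 18.3% of all JUNB peaks of transformed cells had none. In 1391 regions (17.9%) at least 1 protein had a summit in non-transformed cells, against 81.7% of all JUNB peaks. These shares depended on the lists used. The share without any summit was 53.8% when each partner list was cut to the length of the shortest, and 34.1% (24.9 to 44.7%) among the 85 alone peaks with −log10 q of at least 10.

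JUNB itself had a summit in non-transformed cells at 523 of the JUNB-alone regions (6.74%, 6.21 to 7.32%), against 55.2% of all JUNB peaks. With the cut partner lists the share was 20.1%, and among the 85 peaks 41.2% (31.3 to 51.8%). FOS was the protein found most often, at 978 regions (12.6%, 11.9 to 13.4%) against 76.9%. JUN had a summit at 241 regions (3.11%, 2.74 to 3.52%) against 48.2%. STAT3 had a summit at 146 regions (1.88%, 1.60 to 2.21%) against 27.0%. NFKB1 had a summit at 29 regions (0.374%, 0.260 to 0.536%) against 9.71%. At least 1 of FOS, JUN, STAT3 and NFKB1 had a summit at 1186 regions (15.3%, 14.5 to 16.1%) against 80.1% of all JUNB peaks. Another protein was thus listed far less often at the JUNB-alone regions than at JUNB peaks in general.

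Alone peaks of the other proteins had low shares as well. A summit of any of the 5 proteins in non-transformed cells was present at 29.3% of FOS-alone, 40.1% of JUN-alone, 16.8% of NFKB1-alone and 21.7% of STAT3-alone peaks, and at 17.9% of JUNB-alone peaks. At the peaks that were not alone the shares were 81.1% for FOS, 87.8% for JUN, 88.0% for NFKB1, 84.3% for STAT3 and 87.0% for JUNB. Their median fold enrichment was likewise lower when alone, with 5.17 against 10.9 for FOS, 4.94 against 8.24 for JUN, 5.30 against 6.99 for NFKB1 and 5.73 against 8.60 for STAT3. Low occupancy in non-transformed cells and low strength were therefore shared by the alone peaks of all 5 lists.

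Since weak peaks are found again less often than strong ones, the JUNB-alone regions were also set beside other JUNB peaks of the same strength. In class 1, JUNB had a summit in non-transformed cells at 3.62% of JUNB-alone regions (3.08 to 4.24%) and at 23.6% of the other JUNB peaks (22.6 to 24.7%). In class 3 the values were 9.68% (8.01 to 11.6%) and 31.1% (30.1 to 32.0%), and in class 5 they were 32.4% (24.3 to 41.7%) and 47.5% (46.5 to 48.5%). In class 6, with 31 JUNB-alone regions, the intervals overlapped (32.0 to 65.2% and 56.8 to 58.8%). The intervals were thus apart for JUNB in classes 1 to 5 and not in class 6.

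For FOS in non-transformed cells the separation was wider. FOS had a summit at 7.33% of JUNB-alone regions and 55.3% of the other JUNB peaks in class 1, at 17.0% and 66.0% in class 3, and at 45.2% (29.2 to 62.2%) and 86.1% (85.5 to 86.8%) in class 6. With the other JUNB peaks weighted to the strength classes of the JUNB-alone regions, 59.7% had FOS, 29.0% JUN, 26.6% JUNB, 16.3% STAT3 and 4.99% NFKB1 in non-transformed cells, and 29.4% had none of the 5. Without any summit were thus 82.1% of JUNB-alone regions, 13.0% of the other JUNB peaks and 29.4% of the other JUNB peaks after weighting. The other JUNB peaks were defined by FOS, JUN, STAT3 or NFKB1 peaks in transformed cells, so a match with those proteins in the other condition compares the same antibodies again.

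**Figure D3:**
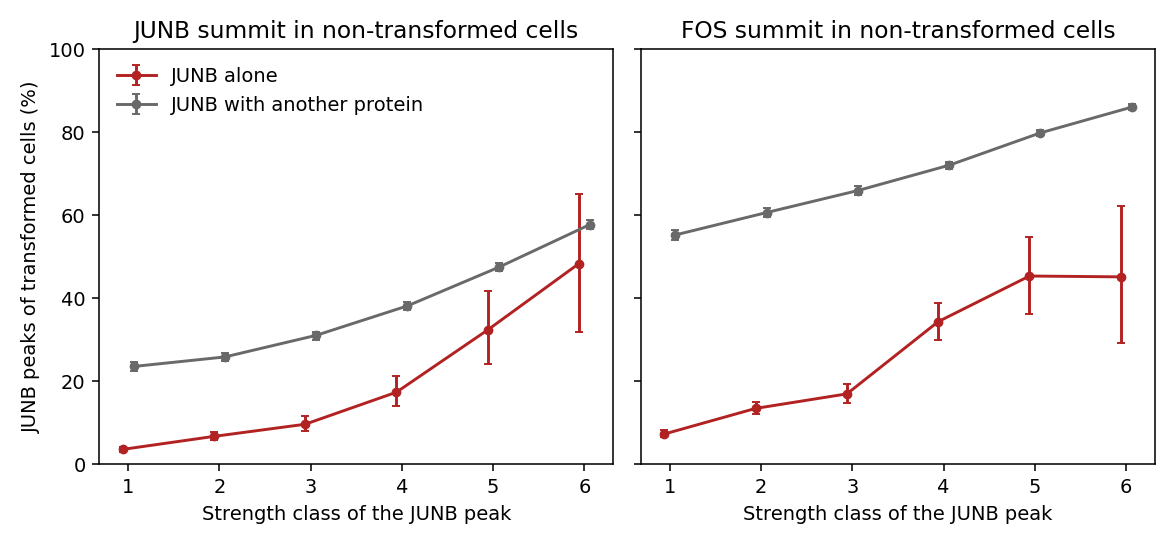
Percent of JUNB peaks of transformed cells with a JUNB (left) or FOS (right) summit within 300 bp in non-transformed cells, by strength class 1 to 6 of the JUNB peak, with 95% Wilson intervals. JUNB-alone regions (red) lie below the other JUNB peaks (grey) in each class shown, with overlapping intervals only for JUNB in class 6, and classes 7 to 10 with at most 8 JUNB-alone regions each are not drawn.

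The 1391 regions with a summit in non-transformed cells fell into a few patterns. FOS was by itself in 591, FOS with JUNB in 220, JUNB by itself in 205, JUN by itself in 100 and STAT3 by itself in 67. NFKB1 was by itself in 9. Hence 205 regions (2.64%) had JUNB and no summit of the other proteins within 300 bp in either condition. Of these, 48 (23.4%) lay within 1000 bp of another protein's summit in transformed cells. In non-transformed cells 318 regions (4.10%) had JUNB together with another protein, and 868 (11.2%) had another protein without JUNB.

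The peaks of non-transformed cells at these regions were themselves weak. Median fold enrichment of the matching peak in non-transformed cells was 5.96 for FOS against 8.75 over its whole list, 5.05 against 6.26 for JUN, 5.64 against 7.35 for JUNB, 5.60 against 6.84 for STAT3 and 5.75 against 7.23 for NFKB1. The share of matching peaks below the median of their list ran from 75.9% for NFKB1 to 85.0% for FOS. When FOS matched, its summit lay a median of 32 bp from the JUNB summit of transformed cells, JUNB 39 bp, JUN 71 bp, STAT3 90 bp and NFKB1 111 bp.

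The JUNB libraries differed in depth between conditions. The JUNB_EtOH library had 0.583 times the reads of JUNB_TAM, so an unchanged JUNB-alone region would have a median of 4.66 reads at its summit there, while the list begins at 4 reads and the 10th percentile of its pileups is 6. The unchanged pileup would reach the minimum of 4 reads at 6422 JUNB-alone regions (82.8%), and 489 of these (7.61%, 6.99 to 8.29%) had a JUNB summit in non-transformed cells. It would be at least 6 reads at 520 regions, and 127 of them (24.4%, 20.9 to 28.3%) had a JUNB summit. The same shares were not computed for the other JUNB peaks, so whether these are low for peaks of that depth cannot be told. The part of depth in these shares was not tested.

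Where JUNB had a summit in both conditions, pileups were compared per 1000000 reads. At the 523 JUNB-alone regions the median was 0.571 in transformed and 0.763 in non-transformed cells, and the median log2 ratio of transformed to non-transformed was -0.56 (quartiles -0.90 and -0.19), with 69 regions (13.2%) higher in transformed cells. At the other 55242 JUNB peaks found in both, it was -0.05 (quartiles -0.49 and 0.42). Within the 3 weakest classes the order was the other way round, with -0.59 over 391 JUNB-alone regions and -0.78 over 6316 other peaks. The shallower list admits a peak from 0.436 reads per 1000000 and the deeper from 0.317, so weak peaks enter this ratio only when they were high in non-transformed cells, and its sign at weak peaks is not a measure of change.

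JUNB-alone peaks were also called by the same rule in non-transformed cells, 12411 of 75249 (16.5%, 16.2 to 16.8%). Of these, 1585 (12.8%) had a JUNB summit in transformed cells and 194 (1.56%, 1.36 to 1.80%) had 1 that was alone there too. The sets of the 2 conditions thus had few listed regions in common. The partner lists of non-transformed cells were shorter, with 13252 against 73822 peaks for NFKB1 and 42810 against 80265 for STAT3. No match for peak strength was made here, and the part of list length was not tested. Of the other JUNB peaks of non-transformed cells, 86.5% had a JUNB summit in transformed cells and 0.504% had 1 that was alone.

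The nearest summit of another protein in transformed cells lay a median of 4524 bp away (quartiles 1431 and 11902, range 301 to 575429 bp). It belonged to FOS for 44.8% of the JUNB-alone regions, to JUN for 28.3%, to STAT3 for 13.6% and to NFKB1 for 13.2%. By distance, 770 regions (9.93%) lay at 301 to 500 bp, 760 (9.80%) at 501 to 1000 bp, 3975 (51.2%) at 1001 to 10000 bp and 2252 (29.0%) farther away.

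Median fold enrichment hardly moved with distance: 4.71, 4.56, 4.64 and 4.56 in these 4 classes. The strongest peaks, in contrast, were in the nearest class, with a maximum of 28.5 at 301 to 500 bp and of 9.13, 10.9 and 10.8 in the others. Of the 44 JUNB-alone peaks above the list's median −log10 q, 26 (59.1%, 44.4 to 72.3%) lay within 500 bp of another protein's summit and 5 lay over 10000 bp away. In the nearest class the peak interval overlapped that of another protein for 184 regions (23.9%), against 10 at 501 to 1000 bp and 0 beyond.

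**Figure D4:**
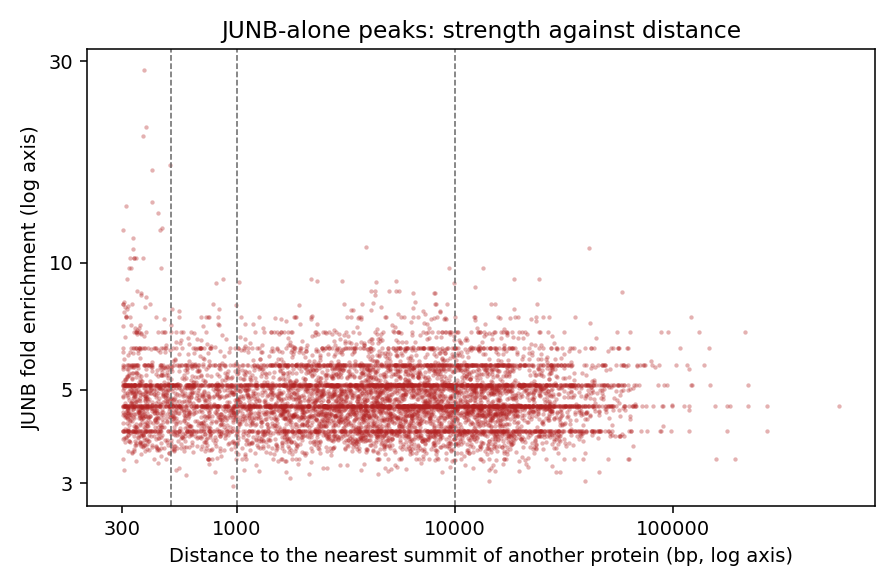
Fold enrichment of each of the 7757 JUNB-alone peaks against the distance from its summit to the nearest summit of FOS, JUN, STAT3 or NFKB1 in transformed cells (both axes log). Dashed lines mark 500, 1000 and 10000 bp, and every peak above a fold enrichment of 10.9 lies left of the first line.

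Occupancy in non-transformed cells also varied with distance. At least 1 of the 5 proteins had a summit in non-transformed cells at 29.9% of regions at 301 to 500 bp (26.7 to 33.2%), 19.5% at 501 to 1000 bp (16.8 to 22.4%), 17.6% at 1001 to 10000 bp (16.4 to 18.8%) and 14.0% beyond (12.6 to 15.5%). FOS followed the same order with 16.2%, 13.6%, 13.1% and 10.2%. JUNB stood at 9.22% (7.37 to 11.5%) in the nearest class and at 5.92% (4.45 to 7.83%), 6.72% and 6.22% in the others, and the intervals of the first and second class overlapped. In the nearest class a small shift of another protein's summit between libraries can give a match, and the part of such shifts was not tested.

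Just inside and just outside the 300 bp limit, JUNB peaks were of like strength, with a median fold enrichment of 4.90 for the 296 peaks at 251 to 300 bp and 4.87 for the 282 at 301 to 350 bp. A summit of any protein in non-transformed cells was present at 66.6% and 39.4% of them, and one of JUNB at 31.8% and 13.8%. The match with non-transformed cells uses the same 300 bp. A site of another protein with the same summit in both conditions therefore counts as a match inside the limit and not outside it. Outside, it can match only where its summit lay closer in non-transformed cells, so this drop is partly built in.

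The 10 most significant JUNB-alone peaks show what the strong end of the set consists of. All 10 had another protein's summit at 301 to 494 bp, all 10 intervals overlapped that of at least 1 other protein, and 8 overlapped those of all 4. Coordinates are in hg19, the build named in the submitters' processing notes. The strongest was the 771 bp peak chr5:37941067-37941837, with a pileup of 49 reads and a fold enrichment of 28.5. In transformed cells JUN had its summit 376 bp away with a fold enrichment of 20.9, FOS 384 bp away with 37.8, and STAT3 and NFKB1 both 396 bp away with 21.5 and 47.6. In non-transformed cells the FOS summit lay 39 bp from the JUNB summit of transformed cells with a fold enrichment of 29.0, and JUNB lay 3 bp away with 9.17. At this region the FOS summit was thus beside the JUNB summit in non-transformed cells and 384 bp from it in transformed cells. The rule itself requires over 300 bp in transformed cells, and the FOS interval there still overlapped the JUNB interval. The distances of summits therefore do not show that FOS left the JUNB position.

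The peak chr13:40846590-40847169 (fold enrichment 11.9, pileup 22) had a like pattern of FOS summits, under the same limit. At this peak and the next ones given here, the FOS interval of transformed cells again overlapped the JUNB interval. FOS had its summit 3 bp from the JUNB position in non-transformed cells, with a fold enrichment of 26.9, and 315 bp away in transformed cells, with 14.9. The peak chr3:107849488-107849879 (17.0, pileup 32) had FOS 10 bp away in non-transformed cells with 12.8 and 494 bp away in transformed cells with 50.3. A peak of 286 bp on chromosome 18 (12.1, pileup 22) had FOS 5 bp away in non-transformed cells with 12.8 and 462 bp away in transformed cells with 18.5.

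Other strong regions had fewer or different proteins in non-transformed cells. The peak chr2:102744044-102744445 (fold enrichment 21.0, pileup 41) had JUNB (6.10) and STAT3 (7.49) in non-transformed cells. The peak chr2:46219167-46219904 (16.6, pileup 31) had STAT3 with 8.19 and none of the AP-1 proteins. The peak chr3:11179082-11179390 (11.9, pileup 20) had FOS alone with 9.30, and in transformed cells FOS had its summit 445 bp away with 38.0. A peak of 740 bp on chromosome 8 (13.9, pileup 31) had JUN with 3.96 and STAT3 with 5.47. The peak chr16:56639972-56640401 (13.1, pileup 22) had JUN with 9.10 and JUNB with 5.64, and in transformed cells STAT3 reached 90.2 at 1109 bp. The peak chr5:172199326-172200002 (13.6, pileup 29) had JUNB alone in non-transformed cells, with 9.27, and in transformed cells FOS at 311 bp with 16.3.

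The third strongest, chr21:9825389-9826566, was the longest JUNB-alone peak with 1178 bp (fold enrichment 20.0, pileup 34) and had no summit of any protein in non-transformed cells. In transformed cells the other 4 proteins had summits at 373 to 464 bp, with fold enrichments of 18.2 (NFKB1) to 47.8 (JUN). Their intervals all overlapped the JUNB interval. Peaks were called without a control library and regions prone to false signal were not removed, so whether this peak is such a region was not tested. The next strongest regions without any summit in non-transformed cells were chr5:179758287-179758725 with 10.3, chr14:31688476-31688691 with 9.70, chr12:96534009-96534170 with 9.14 and chr1:64553550-64553787 with 9.07. In the first of these JUN lay 373 bp away, and in the other three the nearest summit of another protein was 9426, 18723 and 5356 bp away.

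Some regions had JUNB and no other protein's summit within 300 bp in either condition. The strongest of them after chr5:172199326-172200002 were chr6:30749364-30749677 (10.3), chr9:26129350-26129516 (9.70), chr5:168835803-168835992 (8.46) and chr17:12414027-12414248 (7.99). The region on chromosome 9 was the most JUNB-centred of them. JUNB had the same summit base in non-transformed cells, with a fold enrichment of 12.0 there and 9.70 in transformed cells. The pileup was 16 reads in both, although the JUNB_EtOH library had 0.583 times the reads of JUNB_TAM. The nearest summit of another protein in transformed cells, of FOS, lay 13420 bp away with 4.66. At chr6:30749364-30749677, in contrast, all 4 other proteins had summits at 338 to 355 bp in transformed cells. There and at chr5:172199326-172200002 the JUNB interval overlapped the intervals of all 4.

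Regions over 10000 bp from any other protein were looked at after their values had been seen. The strongest was chrX:70030724-70030921, with a fold enrichment of 10.8 and a pileup of 18, 41086 bp from a JUN summit, and FOS had a summit there in non-transformed cells with 4.92. It was followed by the chromosome 9 and chromosome 12 regions given above, by chr11:120644369-120644550 (9.13), which had FOS (7.11) and JUNB (5.64) in non-transformed cells, and by chr13:38836433-38836596 (8.76), which had FOS (4.90) and JUNB (7.63), both 4 bp from the JUNB summit of transformed cells. Over all 2252 regions beyond 10000 bp, 230 (10.2%) had FOS in non-transformed cells, and the rule itself keeps FOS away from each of them in transformed cells.

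The JUNB-alone regions mostly lay apart from each other, with a few close groups, and no other set of this size was set beside them. The nearest other JUNB-alone region lay a median of 95406 bp away, 138 regions (1.78%) had another within 1000 bp and 732 (9.44%) within 10000 bp. Of the 2839 bins of 1000000 bp that held a JUNB peak, 2402 (84.6%) held at least 1 that was alone, and the median was 2. The densest bin, at 57000000 to 57999999 on chromosome 6, held 20 among 49 JUNB peaks, and 10 of the 20 had a summit in non-transformed cells. The next were bins at 63000000 on chromosome 13 (16 of 35) and 140000000 on chromosome 5 (16 of 52), where 1 and 0 of the JUNB-alone regions had a summit in non-transformed cells. Median fold enrichment in these 3 bins was 4.56, 4.34 and 4.21.

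Chromosomes differed in the share of their JUNB peaks that were alone, from 2.42% on chromosome 22 (1.63 to 3.57%) and 3.43% on chromosome 19 (2.53 to 4.61%) to 9.67% on chromosome 4 (8.99 to 10.4%) and 10.3% on chromosome 13 (9.33 to 11.4%). From the share alone in each strength class over all chromosomes, 66.3 JUNB-alone peaks would be found on chromosome 22 and 24 were (a ratio of 0.36), and on chromosome 19 the ratio was 0.50, on chromosome 17 it was 0.65 and on chromosome 16 it was 0.72. The ratio was 1.18 on chromosome 4 and 1.20 on chromosome 13. For alone peaks of the other proteins, computed alike, the ratio on chromosome 22 was 0.99 for FOS, 1.14 for JUN, 0.83 for NFKB1 and 1.01 for STAT3, and on chromosome 19 it was 0.73, 1.31, 0.77 and 1.30. On chromosomes 16, 17 and 20 it was 0.83, 0.83 and 0.78 for NFKB1, and 1.01, 0.97 and 0.98 for FOS. There it was 1.07, 1.12 and 1.06 for JUN, and 1.06, 1.13 and 1.01 for STAT3. NFKB1-alone peaks thus shared the lower ratios on these chromosomes, in weaker form, and JUN-alone and STAT3-alone peaks did not. Whether base composition or gene density moves with these ratios was not tested.

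**Figure D5:**
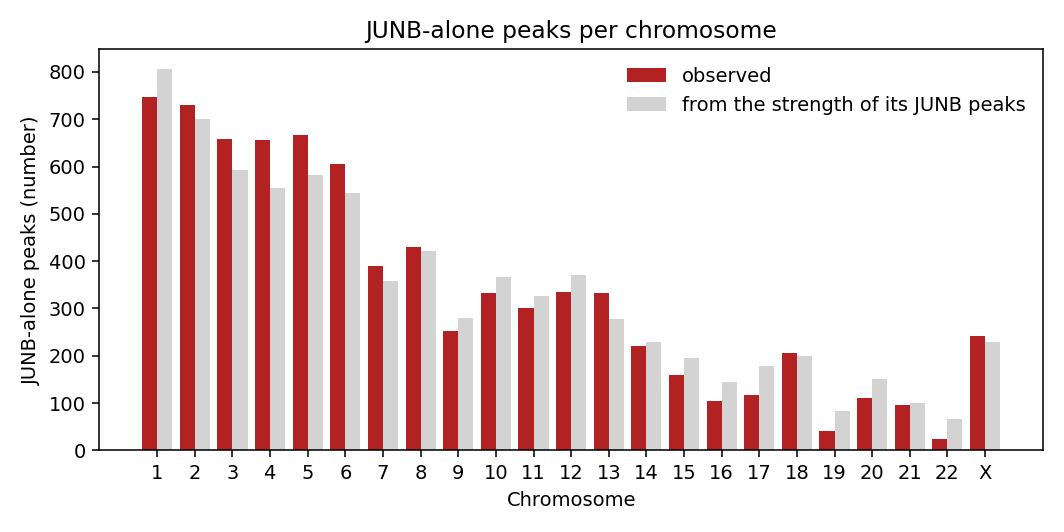
Number of JUNB-alone peaks on each chromosome (red) beside the number computed from the strength classes of the JUNB peaks on that chromosome (grey). On chromosomes 15, 16, 17, 19, 20 and 22 the observed number is under the computed number by more than on the other chromosomes in relative terms, with ratios of 0.36 to 0.81.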

How the data were processed

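ChIP-seq peak lists of FOS, JUN, JUNB, STAT3 and NFKB1 in ER-Src cells were used as deposited, 1 list per sample, with groups taken from the sample labels. Per the file headers, the authors called peaks in each sample separately with MACS2, without a control library, on unique reads with 1 kept per position. The submitters' notes name Bowtie, MACS2 and hg19. The deposited pileup is a signal (extended reads over the summit, not scaled by depth), and the deposited significance is −log10 of the p-value or q-value. The fold enrichment as deposited is a ratio of pileup to local background, with a constant added to both. Library names inside the lists carry different replicate letters for JUNB in the 2 conditions and a longer time for ethanol than for tamoxifen.

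Distances were taken between summits, and a match needs at most 300 bp. Peaks on chromosomes 1 to 22 and X entered, and regions prone to false signal were not removed. Shares have 95% Wilson intervals, which cover counting error only. No test was run, since each group has 1 sample. Strength classes are 10 equal parts of the JUNB list by −log10 q, and weighting used their shares. The distance code was tested on simulated data. Python 3.11.15, numpy 2.4.6, pandas 2.3.3, scipy 1.17.1 and matplotlib 3.10.9 were used.

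Regions were named by rank of −log10 q: the 10 highest, and the 5 highest with no summit, with JUNB and no other, or with another and no JUNB in non-transformed cells. The JUNB-alone regions and all lists of comparisons were chosen with earlier results of these data known. On 14 of 23 chromosomes the lists hold peaks beyond the last base of GRCh38, the only genome at hand, so its build differs from theirs. Sequences, motifs, nearby genes and gene lists were not analysed here.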

Additional observations from a re-analysis of the deposited data

Results flagged for a closer look

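By the same rule, 2 of 13 JUNB peaks on the mitochondrial genome in transformed cells were alone, with fold enrichments of 6.28 and 88.4, and 0 of 13 were alone in non-transformed cells. The mitochondrial genome lies outside the chromosomes the comparisons used, and the cause was not tested.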

How the results depend on the processing

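With summits within 150, 500 or 1000 bp, for the rule and for the match with non-transformed cells together, 8.77, 6.92 and 6.16% of JUNB peaks were alone, and without overlap of whole intervals 8.0%. At 1000 bp, 7.58% of the alone peaks had JUNB, 16.1% another protein and 80.6% no summit in non-transformed cells. With whole intervals the values were 7.36, 16.8 and 80.5%. Whole intervals were used there for the rule only, and the match with non-transformed cells still took summits within 300 bp. The strength thresholds mattered most. Among JUNB peaks with −log10 q of at least 10, 85 were alone (0.151%), with JUNB at 41.2%, another protein at 58.8% and no summit at 34.1%, and with a median fold enrichment of 8.56, a pileup of 15.0, a −log10 q of 12.2 and a length of 202 bp. With that threshold in every list, 1232 were alone (2.19%), with 14.8, 36.9 and 59.7%, a fold enrichment of 8.56, a pileup of 15.0, a −log10 q of 11.6 and a length of 198 bp. Of the 5000 most significant JUNB peaks, 0 were alone (0%, upper limit 0.0768%), which leaves no peaks for the other values. With each partner list cut to the 73822 peaks of the shortest, 20248 were alone (20.0%), with 20.1, 42.8 and 53.8%, a fold enrichment of 5.14, a pileup of 9.00, a −log10 q of 4.60 and a length of 144 bp. Without the FOS list of transformed cells, chosen after seeing the data, 17515 were alone (17.3%), and without the NFKB1 list, also added, 8.02%. The share without any summit in non-transformed cells thus ran from 34.1 to 82.2% over the settings that gave it, which leave out the 5000 most significant peaks and the removal of a list of transformed cells, and the remaining 38 values stayed within their interval, or within 1.5 times for counts. The list of non-transformed NFKB1, the shallowest library, changed no share by more than its interval when left out.

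No paired analysis was possible because each group has 1 sample, so leaving out a replicate leaves no sample. Alternatives that need gene positions or sequence were not run. Peak lists begin at 4 or 5 reads, so weaker binding of any of the 5 proteins cannot be seen in them, and a region absent from a list is not shown to be unbound.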
